A study of Mus musculus with 14 samples.

Results

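The genes described are atrial markers measured in heart ventricle: the atrial myosin light chains Myl7 and Myl4, the secreted glycoprotein Dkk3 and sarcolipin, Sln. They were chosen by name, because earlier readings of these data had shown very high values in single ventricular libraries, so their levels are given as a description and carry no test. Of the 4 named genes, 3 had a row in the table of 14161 genes. Sln, searched by symbol and by Ensembl identifier, is not analysed here. Polyadenylated RNA was sequenced from the ventricles of 14 male mice, 4 hours after an intraperitoneal injection. The groups were 5 GX/GX mice given MRL5, 4 GX/GX mice given DMSO, 2 WT/WT mice given MRL5 and 3 WT/WT mice given DMSO. GX is a changed form of the cardiac sodium channel NaV1.5 carried on both alleles, MRL5 is a compound known by its code name that blocks this form, and DMSO is the vehicle. MRL5 was given to 4 GX mice by the series' design text and to 5 by the sample labels, and all 5 were used. Libraries are named by group and by a number that follows the order of the records and pairs no mice.

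A cardiac myosin molecule carries a regulatory and an essential light chain on each neck, and atrial and ventricular muscle use different genes for them. In the adult mouse, Myl7 is the regulatory and Myl4 the essential light chain of atrial muscle, while Myl2 and Myl3 fill these places in the ventricle. Sln, a small membrane peptide of the sarcoplasmic reticulum, restrains the calcium pump Atp2a2 in atrial muscle, as Pln does mainly in the ventricle. Dkk3 is a divergent member of the Dickkopf family of secreted proteins, other members of which bind Wnt co-receptors, and its transcript is enriched in atrial muscle.

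Values are the deposited scaled reads per base, 1 per gene and library. Column sums lay between 17244042 in WT DMSO 2 and 22163644 in GX DMSO 2. The labelled tissue was checked against ventricular genes: Myl2 lay between 77255 and 118073 and Myl3 between 75156 and 122783 in the 14 libraries. The numbers that open the library names are 174 for GX MRL5 4, for WT DMSO 2 and for WT DMSO 3, and 148 for all others, and libraries with the same number are called a set here. In bulk tissue, fewer cells of a type and less RNA per cell cannot be told apart.

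Myl7 (ENSMUSG00000020469.8) lies on the minus strand of chromosome 11, from 5896637 to 5898782 on GRCm38. Its promoter is shown beside that of Myl4 because these light chains had their highest values in the same libraries. Myl4 (ENSMUSG00000061086.12) is on the plus strand of the same chromosome, from 104550663 to 104595753. The 250 bases before each start, from RefSeq on GRCm38.p6 and written 5′ to 3′ along the gene's strand, are at chr11:5898783-5899032 for Myl7 and chr11:104550413-104550662 for Myl4. Capitals mark matches, on either strand, to the GATA letters TGATAA or AGATAA, the T-box letters GGTGTG, the NKX2-5 letters TNAAGTG, the COUP-TF letters AGGTCA, the TEAD letters CATTCC, the CArG box or the MEF2 site.
Myl7: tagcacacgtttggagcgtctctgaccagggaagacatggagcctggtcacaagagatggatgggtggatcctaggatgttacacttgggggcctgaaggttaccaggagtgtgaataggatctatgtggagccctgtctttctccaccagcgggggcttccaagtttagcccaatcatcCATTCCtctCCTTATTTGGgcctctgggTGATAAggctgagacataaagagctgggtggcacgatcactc
Myl4: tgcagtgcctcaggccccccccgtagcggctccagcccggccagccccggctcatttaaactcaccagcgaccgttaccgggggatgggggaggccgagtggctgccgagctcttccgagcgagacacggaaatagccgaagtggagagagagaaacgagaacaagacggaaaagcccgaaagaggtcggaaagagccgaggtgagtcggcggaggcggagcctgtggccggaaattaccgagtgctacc
The Myl7 window held a TEAD match 70 to 65 bases before the start, a CArG match 61 to 52 bases before it and a GATA match, TGATAA, 42 to 37 bases before it, which do not overlap. The Myl4 window held none of these letters. Among 32851 windows of the same length, TGATAA was found in 7.94%, AGATAA in 9.99%, GGTGTG in 16.3%, TNAAGTG in 10.1%, AGGTCA in 14.0%, CATTCC in 12.6%, the CArG box in 1.47% and the MEF2 site in 2.92%. A match is a description of the letters only.

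Myl7, the atrial regulatory light chain, was near the floor of the table in 11 of 14 libraries and high in 3. It was at 3.37, 11.3, 4.06, 133 and 2.06 in GX MRL5 1 to 5, and at 4.42, 13.2, 643 and 0 in GX DMSO 1 to 4. It was at 20.7 and 11.6 in WT MRL5 1 and 2, and at 8.04, 3967 and 6.90 in WT DMSO 1 to 3. WT DMSO 2 was highest, then GX DMSO 3 and then GX MRL5 4. Those 3 libraries come from 3 groups, and all 4 groups overlapped. WT DMSO 2 was at 411 times the median of the 14 libraries, which was 9.65, GX DMSO 3 at 66.7 times and GX MRL5 4 at 13.8 times.

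Myl4, the atrial essential light chain, had the same 3 libraries at the top, above a base that was detected in every mouse. It was at 24.4, 38.6, 25.9, 265 and 43.8 in GX MRL5 1 to 5, and at 30.1, 20.7, 868 and 40.1 in GX DMSO 1 to 4. It was at 30.0 and 103 in WT MRL5 1 and 2, and at 32.5, 5676 and 53.7 in WT DMSO 1 to 3. The groups overlapped, and after WT DMSO 2, GX DMSO 3 and GX MRL5 4 the next library was WT MRL5 2, at 2.61 times the median of 39.4. The 3 highest libraries were at 144, 22.1 and 6.72 times that median.

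Dkk3 (ENSMUSG00000030772.6, chromosome 7, 112116017 to 112159057, minus strand) was high in more libraries than the light chains. It was at 46.1, 40.9, 46.7, 422 and 29.9 in GX MRL5 1 to 5, and at 36.2, 39.5, 674 and 41.2 in GX DMSO 1 to 4. It was at 47.1 and 304 in WT MRL5 1 and 2, and at 40.2, 2059 and 131.2 in WT DMSO 1 to 3. The order of the first 3 libraries was that of the light chains, but WT MRL5 2 followed at 6.56 times the median of 46.4 and WT DMSO 3 at 2.83 times. In these last 2 libraries Myl7 was at 11.6 and 6.90, close to its own median.

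**Figure D1:**
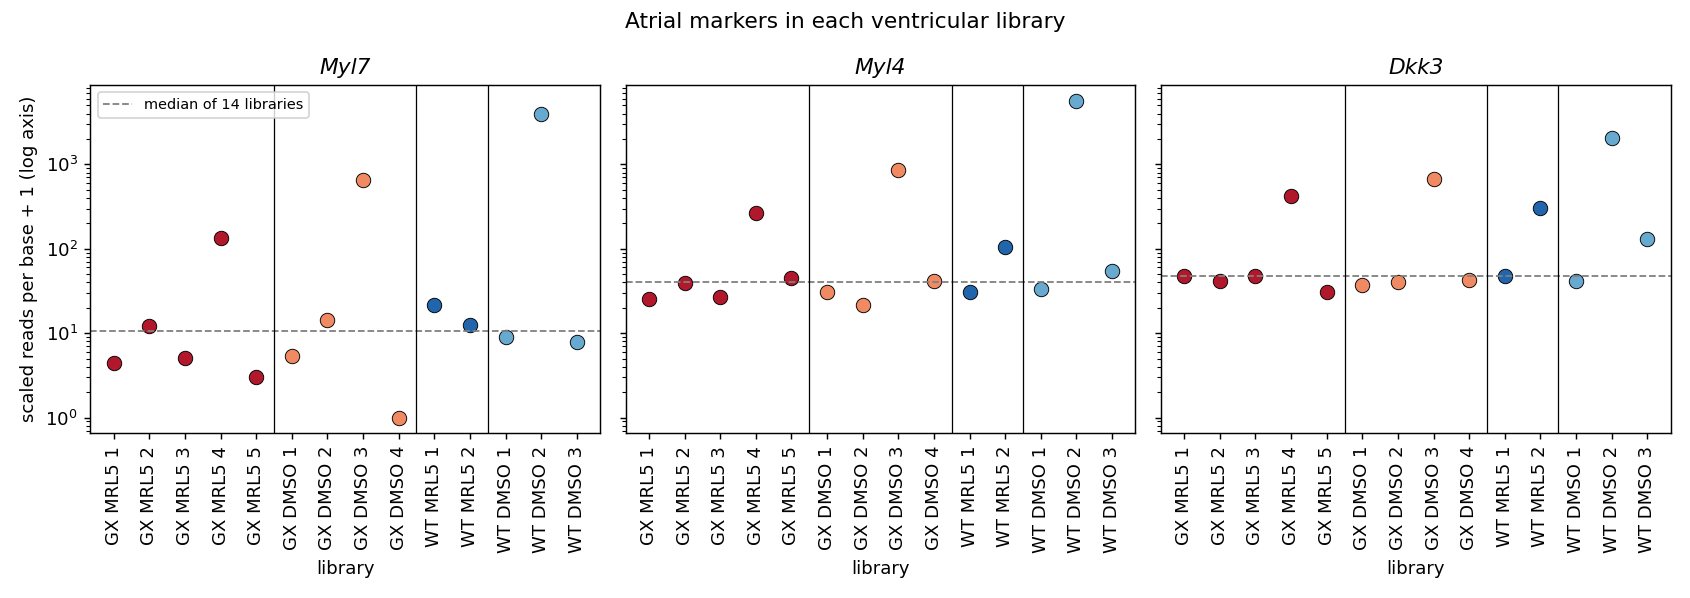
Each point is 1 library's value plus 1, in scaled reads per base on a log axis, for Myl7, Myl4 and Dkk3, with the groups separated by vertical lines and a dashed line at the median of the 14 libraries. GX MRL5 4, GX DMSO 3 and WT DMSO 2 lie above the other libraries of their groups in all 3 panels, and WT MRL5 2 is high for Dkk3 and Myl4 and WT DMSO 3 for Dkk3.

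Among the 3 libraries highest in Myl7, for which the genes were chosen, Myl7 and Myl4 scaled more alike than either did with Dkk3. The level above the median in WT DMSO 2 was 6.24 times that in GX DMSO 3 for Myl7 and 6.80 times for Myl4, against 3.20 times for Dkk3. Set against GX MRL5 4, the level above the median in WT DMSO 2 was 32.1 times as large for Myl7 and 25.0 times for Myl4, against 5.36 times for Dkk3. These ratios compare a gene with itself, so transcript length does not enter them. WT MRL5 2 differed: there Myl4 was at 2.61 times its median and Myl7 at 1.20 times. Over the 14 libraries the Pearson correlation of log2(value + 1) was 0.91 between Myl7 and Myl4 (Spearman 0.45), 0.89 between Myl7 and Dkk3 (Spearman 0.65) and 0.95 between Myl4 and Dkk3 (Spearman 0.64), as a description of 14 points that share their library and scaling. Without WT DMSO 2 and GX DMSO 3, the 2 libraries farthest from the median, the Pearson values were 0.59, 0.64 and 0.89 in the same order. Over the 11 libraries without GX MRL5 4 as well, the Spearman values were -0.15, 0.28 and 0.25. By rank, the likeness of the 3 genes thus rests largely on the libraries for which they were chosen. No Pearson value was taken over these 11. Among them WT MRL5 2 was highest for both Myl4, at 103, and Dkk3, at 304.

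The jump of these genes was among the sharpest of the table, which is how they were chosen. Ranked by the highest library minus the median on the log2 scale, Myl7 was place 1 of 14156 genes tested, at 8.56, Myl4 was place 4, at 7.14, and Dkk3 was place 12, at 5.44. Tested genes are those with a value of 1 or more in 2 or more libraries. With equal column sums the places were 1, 4 and 10, and with median ratios 1, 4 and 12.

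The ventricular partners of the light chains moved little. Myl2, the ventricular regulatory chain, was at 82919 to 95938 in GX MRL5 and 80232 to 118073 in GX DMSO, and at 82502 and 104985 in WT MRL5. In WT DMSO it was at 87373, 77255 and 94301. Its lowest library was WT DMSO 2 and its second lowest GX DMSO 3, at 80232, as was the case for the ventricular essential chain Myl3, at 75156 and 80774. That place at the bottom depends on scaling: with equal column sums GX DMSO 2 was lowest for both genes, and with median ratios WT DMSO 2 was lowest again. The alpha heavy chain Myh6, shared by atria and ventricles of the mouse, was lowest in WT DMSO 2, at 43256, and next in WT DMSO 3, at 43580. With equal column sums GX DMSO 2 was lowest for Myh6 too, and with median ratios WT DMSO 2 again.

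Sarcolipin's main partners lay within the range of the other libraries in the 3 libraries highest in Myl7. Pln, the ventricular inhibitor of the calcium pump, was at 54353 in GX MRL5 4, 50423 in GX DMSO 3 and 56804 in WT DMSO 2, within the range of 43496 to 61147 over all libraries. The pump Atp2a2 was at 306688, 306516 and 301337 in the same libraries, within a range of 293965 to 378141. Of the 13 tested genes of the pump and its regulators, none was at least 2 times its median in GX MRL5 4, GX DMSO 3 or WT DMSO 2. Of all genes tested, 3.74% were in GX MRL5 4, 2.04% in GX DMSO 3 and 3.27% in WT DMSO 2. Some were low instead: Strit1, a small peptide that raises the activity of the pump, had its lowest values in GX DMSO 3, at 115, and WT DMSO 2, at 124, against a median of 208, and these were its lowest libraries under each scaling. The calcium-binding proteins Hrc and S100a1 and the calcium release channel Ryr2 were lowest in WT DMSO 2 as deposited, at 12743, 7151 and 2417. With median ratios they were lowest there too, but not with equal column sums.

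Of 11 tested Dickkopf relatives and Wnt receptors, 0 were at least 2 times their median in GX MRL5 4 (3.74% of all genes tested). At that level were 1 in GX DMSO 3 (2.04%) and 1 in WT DMSO 2 (3.27%). Dkk2, another Dickkopf protein, was at 15.1 in GX DMSO 3, 11.6 in WT MRL5 2 and 28.1 in WT DMSO 2, and at most 7.09 in each other library, GX MRL5 4 among them at 4.46. The Wnt co-receptors Lrp5 and Lrp6 and the Dickkopf receptor Kremen1 were at 1249, 446 and 2388 in WT DMSO 2. Lrp5 was lower there than in each other library, as was Kremen1, and Lrp6 lay second to WT MRL5 2, at 464. With equal column sums neither Lrp5 nor Kremen1 was lowest in WT DMSO 2, and Lrp6 was highest there. With median ratios Lrp5 and Kremen1 were lowest in WT DMSO 2 again. The Wnt receptors Fzd1 and Fzd2 were instead highest in WT DMSO 2 under each scaling. As deposited they were at 280 and 133 there, against medians of 196 and 81.4. They were at 244 and 123 in GX MRL5 4 and at 235 and 122 in GX DMSO 3.

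Of the high libraries of Myl7, WT DMSO 2 was the one in which many of 16 other atrial genes were also high, with fewer in GX DMSO 3 and GX MRL5 4. In WT DMSO 2, 9 of the 16 had their highest value of the 14 libraries (7.14% of all genes tested did). There, 5 were at least 2 times their median (3.27% of all genes tested), and the median difference was 0.58 on the log2 scale. In GX DMSO 3, 1 of 16 was highest (5.42% of all genes tested) and 1 was at least 2 times its median (2.04%). The median difference there was 0.27. GX DMSO 3 was second of the 14 libraries for Hamp, Gja5, Stard10 and Sbk2 and place 3 for Sbk3, the last 4 at 1.49, 1.42, 1.41 and 1.86 times their medians. In WT MRL5 2 (5.23% of all genes tested highest) and WT DMSO 3 (7.93%), which had raised Dkk3 without raised Myl7, 1 of 16 was highest in each and 0 were at least 2 times their median. Of all genes tested, 1.94% and 2.61% were at least 2 times their median in these libraries. In GX MRL5 4, 0 of 16 were highest (8.24% of all genes tested) and 1 was at least 2 times its median (3.74%). The median difference there was -0.27. The summed level of the 16 genes was 10125 to 15929 in GX MRL5 and 10796 to 16576 in GX DMSO. It was 11920 and 12466 in the WT MRL5 mice, and reached from 11417 to 28499 among WT DMSO mice. Of the 28499, in WT DMSO 2, the single gene Nppa made up 16584, so this sum mostly reflects 1 gene. With equal column sums 13 of 16 were highest in WT DMSO 2, where 3034 of all 14156 genes then were.

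Nppa, the atrial natriuretic peptide, is also made by stressed ventricle. It was at 5073, 2728, 3576, 1746 and 3274 in GX MRL5 1 to 5, and at 4767, 763, 4092 and 6028 in GX DMSO 1 to 4. It was at 2453 and 1431 in WT MRL5, and at 1853, 16584 and 1655 in WT DMSO 1 to 3. WT DMSO 2 was at 5.53 times the median, while GX MRL5 4, with raised light chains, was at 0.582 times the median. Hamp, the iron-regulating peptide hepcidin, was the one gene of the list that followed Myl7 through all 3 libraries: 8.86 in GX MRL5 4, 20.7 in GX DMSO 3 and 108 in WT DMSO 2. It was also at 11.1 in GX DMSO 2, and at most 5.12 in the remaining libraries, 4 of which were listed at 0.

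Other members of the atrial list stood out in WT DMSO 2 by smaller factors. The kinases Sbk3 and Sbk2 were at 566 and 273 there, 3.22 and 2.84 times their medians, and the lipid-binding protein Stard10 at 741, 2.08 times. The transcription factor Tbx5, at 320, was 1.58 times its median, the gap junction protein Gja5, at 263, 1.70 times, and the amidating enzyme Pam, at 2558, 1.42 times. Among potassium channels, the muscarinic-gated subunit Kcnj3, at 1747, was 1.41 times its median and its partner Kcnj5, at 1237, 1.33 times. The leak channel Kcnk3 was lower in WT DMSO 2 than in each other library, at 2558 against a median of 3317. With equal column sums GX MRL5 3 was lowest for Kcnk3, and with median ratios WT DMSO 2 was lowest again. Kcna5, the ultrarapid delayed rectifier, was at 580 against a median of 756. The COUP factors Nr2f1 and Nr2f2 were at 19.8 and 161, 1.33 and 1.15 times their medians, the calcium channel Cacna1d was at 49.4, 1.77 times, and Fam189a2 at 733, 0.901 times. The levels of Bmp10 and Mybphl are not analysed here.

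**Figure D2:**
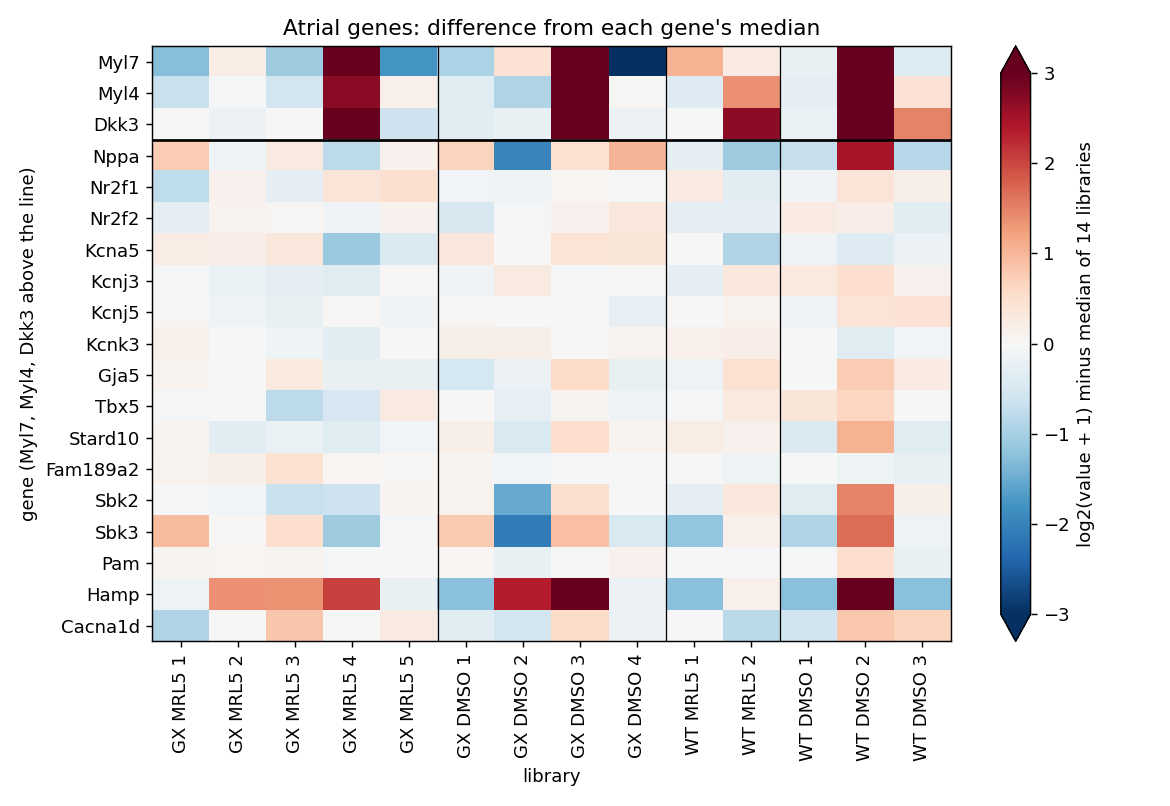
Rows are genes and columns are the 14 libraries, and colour is log2(value + 1) minus the gene's median over the libraries, cut at 3 in either direction. Above the line, Myl7, Myl4 and Dkk3 are red in GX MRL5 4, GX DMSO 3 and WT DMSO 2. Below it, WT DMSO 2 is the column with most of the red, led by Hamp and Nppa, and GX MRL5 4 is blue for Nppa, Kcna5 and Sbk3.

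Some genes of other structures near the atria and at the base of the heart were high in the same libraries. Of 4 tested valve genes (Acan and Chad of the list are not analysed here), 3 were at least 2 times their median in each of GX MRL5 4, GX DMSO 3, WT MRL5 2 (1.94% of all genes tested) and WT DMSO 2, and 0 in WT DMSO 3 (2.61%). The collagen-binding protein Fmod was at 162 in GX MRL5 4, 198 in GX DMSO 3, 86.5 in WT MRL5 2 and 292 in WT DMSO 2, against a median of 30.2, and also at 84.8 in GX DMSO 2, where Dkk3 was at 39.5. Comp, a matrix protein of tendon and cartilage, was at 36.6, 41.2, 19.6 and 72.9 in the same libraries, against 8.32. Hapln1, a link protein of the hyaluronan matrix, was at 9.25, 14.4, 15.1 and 32.9, against 1.79. These are the first 4 libraries of Dkk3. In WT DMSO 3, the fifth, Fmod, Comp and Hapln1 were at 33.7, 6.73 and 3.00. The other tested valve gene, Sox9, was highest in GX MRL5 3, at 135 against a median of 50.9. It was at 79.8 in GX MRL5 4, 73.7 in GX DMSO 3, 47.9 in WT MRL5 2 and 91.8 in WT DMSO 2. The summed level of the valve list lay between 71.8 and 287 in GX MRL5, 66.1 and 327 in GX DMSO, 68.2 and 169 for the WT MRL5 mice and 55.9 and 490 for WT DMSO. Its part in the values of Dkk3 was not tested.

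Conduction genes were high in part of these libraries. The neural adhesion protein Cntn2, a marker of the Purkinje network, was at 443 in GX DMSO 3, 325 in WT MRL5 2, 393 in WT DMSO 2 and 107 in WT DMSO 3, but at 37.9 in GX MRL5 4. Cpne5, a calcium-binding copine, was at 38.2 in GX DMSO 3, 9.56 in WT MRL5 2, 59.0 in WT DMSO 2 and 7.74 in WT DMSO 3, but at 1.25 in GX MRL5 4. Of 12 sinoatrial and conduction genes, 5 were highest in WT DMSO 2 (7.14% of all genes tested were). There, 4 were at least 2 times their median (3.27% of all genes tested). GX MRL5 4 thus had raised Myl7 and Myl4 with Cntn2 and Cpne5 below their medians of 47.0 and 3.39. The summed level of this list was 2438 to 2712 in GX MRL5, 2262 to 3391 in GX DMSO, 2365 and 3263 for the WT MRL5 mice and 2563 to 3710 for WT DMSO, and its part in the values of the atrial genes was not tested.

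GX MRL5 4 led for surface and vessel genes, and GX DMSO 3 was also high for the vessel genes. Of 8 mesothelial genes, which mark the lining of the heart, 7 were highest there (8.24% of all genes tested were). The uroplakin Upk3b was at 295 in GX MRL5 4, 43.7 in GX DMSO 3 and 171 in WT DMSO 2, and the surface protein Msln was at 59.5, 7.04 and 28.3. Their medians were 75.2 and 12.9. GX DMSO 2, with Myl7 at 13.2, was second of the 14 libraries for both, at 207 and 29.9. Of 9 smooth muscle and great vessel genes, 6 were highest in GX MRL5 4, among them Myh11, the smooth muscle heavy chain, at 1510 against a median of 771. GX DMSO 3 was second of the 14 libraries for Acta2, Cnn1, Lmod1, Tagln and Myl9. It was place 3 for Myh11, at 1238, and for Mylk and Smtn, and place 6 for Myocd. The mesothelial sum was 99.6 to 846 in GX MRL5, 68.3 to 437 in GX DMSO, 215 and 293 for the WT MRL5 mice and 94.2 to 464 for WT DMSO. The smooth muscle sum in these groups was 4865 to 7451, 4774 to 7152, 4507 and 6133, and 3823 to 5342 in the same order. Whether these have a part in the Myl7 and Myl4 values of that library was not tested. Of 14 genes of skeletal muscle, in which sarcolipin is also found, 5 are in the table. None was at least 2 times its median in GX MRL5 4, GX DMSO 3 or WT DMSO 2. The light chain Myl1 lay between 267 and 609, with WT DMSO 2 second at 593, the calcium store protein Casq1 between 59.3 and 199, highest in GX DMSO 3, and Atp2a1, the pump of fast fibres, between 3.83 and 16.9. The sum was 387 to 779 in GX MRL5, 396 to 701 in GX DMSO, 502 and 519 for the WT MRL5 mice and 454 to 803 for WT DMSO.

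**Figure D3:**
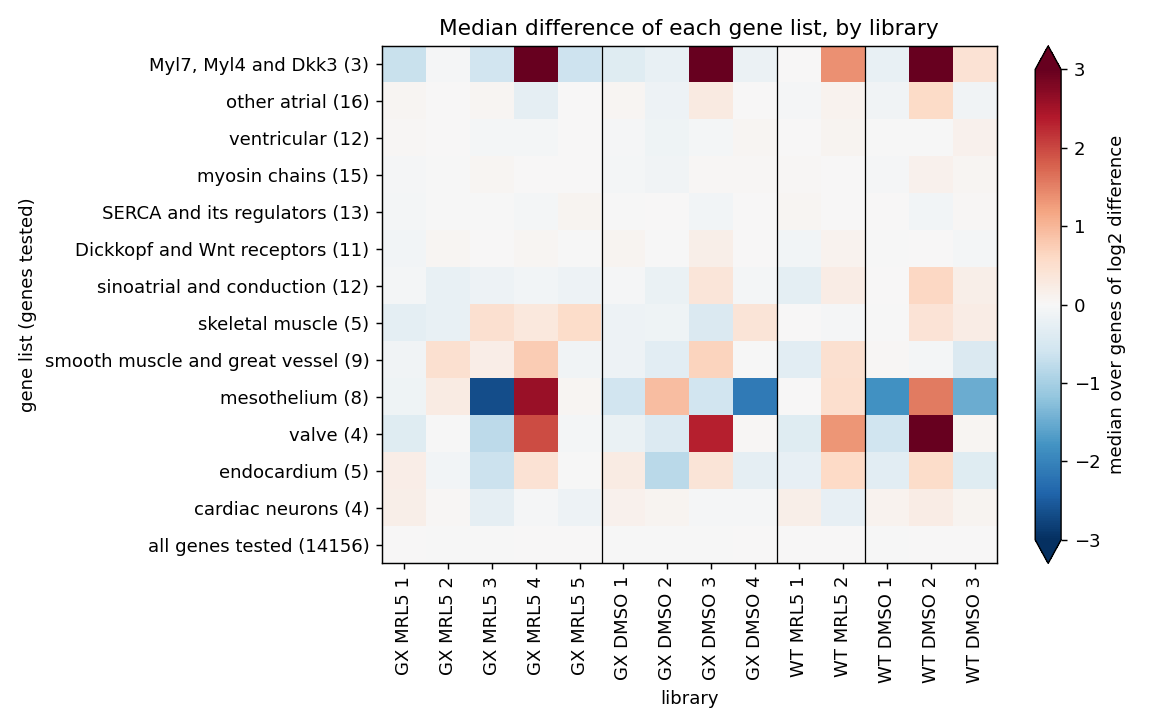
Rows are gene lists with the number of genes tested, columns the 14 libraries, and colour the median over the list of log2(value + 1) minus each gene's median, cut at 3 in either direction. Valve genes are red in the columns where Myl7, Myl4 and Dkk3 are red, mesothelial genes are reddest in GX MRL5 4, and ventricular genes and all genes tested stay near 0.

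Genes with patterns most like each marker were found by the Pearson correlation of log2(value + 1) over the 14 libraries, skipping predicted genes. For Myl7 they were Scd1, a fatty acid desaturase (0.91), Myl4 (0.91), the secreted protein Ecrg4 (0.91), the Golgi protein Golim4 (0.91) and the neurotrophin receptor Ntrk2 (0.91). Ecrg4 was at 34.3 in GX MRL5 4, 23.0 in GX DMSO 3 and 66.97 in WT DMSO 2, and at most 10.7 in each other library. For Myl4 they were Dkk3 (0.95), the matrix proteins Abi3bp (0.94) and Dpt (0.94), the growth factor Bmp2 (0.92) and the kinase subunit Prkar2b (0.92). Bmp2 was at 42.1 in GX MRL5 4, 67.9 in GX DMSO 3 and 98.9 in WT DMSO 2, while GX MRL5 3 was at 42.6 and WT MRL5 2 at 45.4. For Dkk3 they were Myl4 (0.95), the matrix proteins Prelp (0.95) and Olfml2a (0.94), the membrane protein Marveld1 (0.93) and the receptor phosphatase Ptprf (0.92).

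Part of that likeness rests on the highest library. By Spearman correlation over the 13 libraries without WT DMSO 2, the closest genes to Myl7 were Ecrg4 (0.87), Golim4 (0.86), Megf9 (0.86), Bend6 (0.86) and Cyp20a1 (0.86), of which the first 2 were also on the first list. Those closest to Myl4 were Ccn4 (0.92), Mrc2 (0.91), Lrrc3b (0.88), Arxes2 (0.88) and Ccdc80 (0.88), with 0 shared. Those closest to Dkk3 were Akna (0.87), Arv1 (0.87), Ptprf (0.87), Ptpra (0.86) and Emid1 (0.85), with 1 shared. Prelp was at 816 in GX MRL5 4, 975 in GX DMSO 3, 707 in WT MRL5 2 and 949 in WT DMSO 2, and at 428 to 545 in the other libraries, so that it named 4 of the 5 high libraries of Dkk3.

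Differences between conditions were read from a fit with limma over all genes. For MRL5 against DMSO in GX mice, Myl7 averaged 30.7 ± 57.3 (SD, n = 5) in MRL5 mice against 165 ± 319 (SD, n = 4) in DMSO mice. Its log2 fold change was -0.55 (SE 2.16). Without GX DMSO 3 that value was 1.26, without GX MRL5 4 it was -1.47, and with a pseudocount of 0.1 in place of 1 it was 0.13. Myl4 averaged 79.5 ± 104 and 240 ± 419 in these groups, with a log2 fold change of -0.48 (SE 1.56), and Dkk3 117 ± 171 and 198 ± 318, with one of -0.30 (SE 1.29). Their values without GX DMSO 3 were 0.73 and 0.72, and without GX MRL5 4 they were -1.08 and -0.97. For all 3 genes the SD of a group exceeded its mean, and 1 library of each group set the mean.

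In WT mice with MRL5 against DMSO, Myl7 averaged 16.1 ± 6.48 (SD, n = 2) in MRL5 mice against 1327 ± 2286 (SD, n = 3) in DMSO mice. Its log2 fold change was -1.99 (SE 2.94), and 0.97 without WT DMSO 2. For Myl4 the means were 66.3 ± 51.4 and 1921 ± 3252 and the log2 fold change -1.95 (SE 2.12), which was 0.40 without WT DMSO 2. For Dkk3 the means were 176 ± 182 and 743 ± 1140, and the log2 fold change was -0.89 (SE 1.76). It was 0.71 without WT DMSO 2, 0.45 without WT MRL5 1 and -2.22 without WT MRL5 2. Set 148 alone gave 0.87, 0.76 and 1.55 for the 3 genes, with 1 WT DMSO library left.

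GX against WT under DMSO gave log2 fold changes of -2.14 (SE 2.46) for Myl7, -1.64 (SE 1.77) for Myl4 and -1.47 (SE 1.47) for Dkk3. Without WT DMSO 2 these were 0.82, 0.71 and 0.13, and without GX DMSO 3 they were -3.95, -2.85 and -2.49. Library set is confounded with genotype here, since all GX DMSO libraries but only 1 WT DMSO library belong to set 148. Within that set, GX against WT under DMSO gave 0.72, 1.07 and 0.97, and with the set as a covariate 0.85, 0.68 and 0.86. For Myl7, GX DMSO 3, of set 148, was at 643 and WT DMSO 3, of set 174, at 6.90. For Dkk3, all 3 libraries of set 174 were among the 5 highest, at 422 in GX MRL5 4, 2059 in WT DMSO 2 and 131.2 in WT DMSO 3. Krt18, a keratin of the mesothelial list, was also highest in these 3, at 138, 67.6 and 90.9. The part of the set in these values was not tested.

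GX against WT under MRL5 gave -0.69 (SE 2.69) for Myl7, -0.17 (SE 1.94) for Myl4 and -0.88 (SE 1.61) for Dkk3. Without GX MRL5 4, the 1 library of set 174 among these, the values were -1.62, -0.77 and -1.55. Without WT MRL5 2 the Myl4 and Dkk3 values were 0.70 and 0.45. The interaction, which is the MRL5 effect of GX mice minus that of WT mice, was estimated at 1.45 (SE 3.65), 1.47 (SE 2.63) and 0.59 (SE 2.18), and each was below 0 without WT DMSO 2, at -1.51, -0.88 and -1.01. The Dkk3 estimate was also below 0 without GX MRL5 4, at -0.09, and without WT MRL5 1, at -0.75. Within set 148 the 3 estimates were -2.34, -1.84 and -2.53.

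**Figure D4:**
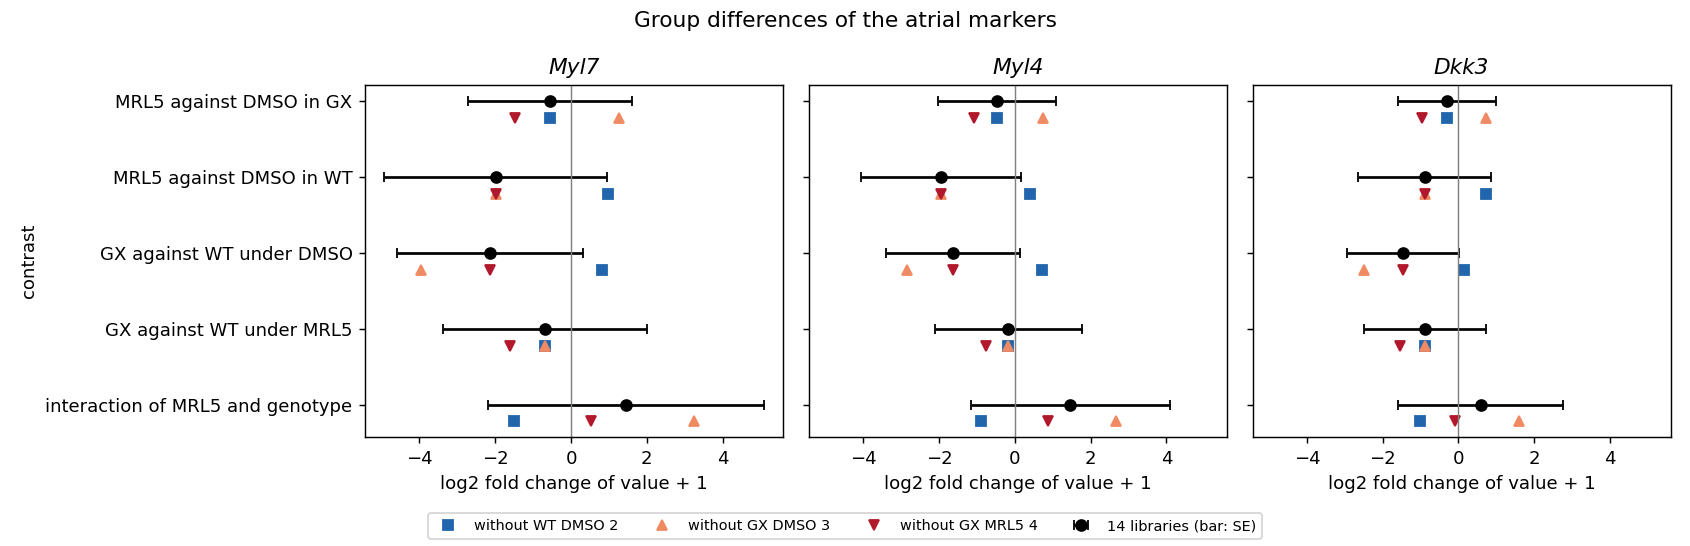
Black points are log2 fold changes of value + 1 with their SE for 5 contrasts, and coloured marks are the same values without WT DMSO 2, GX DMSO 3 or GX MRL5 4. All points for GX against WT under DMSO lie below 0 with 14 libraries and above 0 without WT DMSO 2.

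Across all genes, limma called 0 of 14156 in each of the 5 contrasts at an adjusted p under 0.05 (0.0%). Before adjustment, 585 genes (4.13%) had p under 0.05 for MRL5 against DMSO in GX, 2.71% higher and 1.42% lower, and 799 (5.64%) did in WT, 2.9% higher and 2.74% lower. For GX against WT, 802 (5.67%) did under DMSO, 2.95% higher and 2.72% lower, and 932 (6.58%) under MRL5, 3.6% higher and 2.99% lower. For the interaction 904 (6.39%) did, 3.09% higher and 3.29% lower. Of the 16 other atrial genes, 0 had such a p for MRL5 against DMSO in GX mice, with a median log2 fold change of -0.02 against 0.01 over all genes. In WT mice 1 was higher, Kcnk3, and the median was -0.22 against 0.00 over all genes. Below 0 were 13 of 16 values, and 7115 of 14156 over all genes. When WT DMSO 2 was left out, 7 of the 16 were below 0. For GX against WT under DMSO, 1 was higher, Kcnk3, and 1 lower, Kcnj5 with a log2 fold change of -0.30 (SE 0.125), and the median was -0.23 against -0.02 over all genes. Without WT DMSO 2 these last 2 medians were 0.02 and 0.07, and Kcnk3 and Kcnj5 no longer had such a p: in each of these contrasts 1 gene was then higher, Stard10, and 0 were lower. Under MRL5 the median of GX against WT was 0.05 against 0.00 over all genes, with Fam189a2 the 1 gene that was higher. For the interaction 1 was lower, Kcnk3, and the median was 0.20 against 0.02, and -0.03 without WT DMSO 2.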

How the data were processed

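Ventricular RNA of 14 mice was extracted with miRNeasy and sequenced as paired-end polyA libraries, per the labels' protocols. Per the submitters' processing notes, kallisto and sleuth 0.3.0 were used with GRCm38. The authors deposited a signal value per gene and library, named scaled reads per base in the file header. The scaling is not stated in header or labels, so the depth in reads is unknown, no counting interval can be given, and levels were not compared between genes. Summed levels of a list add values of different genes, so genes with high values weigh most in them.

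Of 14307 entries, 146 with values identical to another entry were left out, and 22 symbols turned into dates were restored. Positions came from GENCODE M21. Values were taken as log2(value + 1), so fold changes of low genes are understated. Under R 4.3.3, limma 3.58.1 (trend, robust) was fitted with 1 mean per group over 14156 genes (a value of at least 1 in at least 2 libraries), with 10 residual degrees of freedom and Benjamini-Hochberg adjustment over all genes tested. The fit was tested on simulated data. Groups come from the labelled genotype and treatment, and each library is a separate mouse per the labels. The comparisons within a genotype or treatment share libraries.

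Named were the atrial genes, their ventricular and functional partners, the other atrial list, genes of other lists that led in single libraries or had the smallest p, and the 5 most alike genes by each of Pearson and Spearman correlation. The members and lists were chosen with earlier results of these data known. Genes outside this rule that are named with values (Lrp6, Kremen1, Myl1, Strit1, Hrc, S100a1 and Ryr2) were chosen after their values were seen. Alternatives were another scaling (equal column sums, median ratios), filter, pseudocount, library set, sample choice and each library left out. Leaving out several libraries together was chosen after seeing the data.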

Additional observations from a re-analysis of the deposited data

Results flagged for a closer look

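In each group of 4 or 5 libraries, 46 groups in all, a library was picked out where its gap to the nearest other library took up more of the group's range than Dixon's 95% critical value. For normally distributed values, chance alone picks about 1 in 20 groups. Here the values were taken without logs, and the 46 groups are different genes in the same GX MRL5 and GX DMSO mice. The groups are therefore not independent, and that rate need not hold. Of the 12 picked, 6 are values of Myl7, Myl4 and Dkk3 for which these genes were chosen, so their number is not set against chance. In GX MRL5 4, Myl7 at 133, Myl4 at 265 and Dkk3 at 422 stood above the nearest libraries, at 11.3, 43.8 and 46.7. In GX DMSO 3 the same genes, at 643, 868 and 674, stood above the nearest libraries at 13.2, 40.1 and 41.2.

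The valve genes gave 4 more. Hapln1 was at 9.25 in GX MRL5 4 (nearest 1.61) and at 14.4 in GX DMSO 3 (nearest 2.33). Fmod was at 162 in GX MRL5 4 (nearest 33.9), and Comp was at 36.6 in the same library (nearest 10.5). The remaining values were Fam189a2 at 1121 in GX MRL5 3 (nearest 915) and Kcna5, low in GX DMSO 2 at 758 (nearest 960). WT DMSO 2, with the highest Myl7, could not be examined this way in a group of 3.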

How the results depend on the processing

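No paired analysis was possible because the labels number no replicates and tie no mice together. The number of genes called was 0 in each contrast, and leaving out 1 library gave 0 to 2 for MRL5 against DMSO in GX, 0 to 58 in WT, 0 to 1 for GX against WT under DMSO, 0 to 63 under MRL5 and 0 to 27 for the interaction. The values of 58, 63 and 27 came without WT MRL5 2, which leaves 1 WT MRL5 library whose variation is taken from that of the other groups. The 2 came without GX DMSO 1 and the 1 without GX MRL5 4. Fitting only the groups compared called 1 gene for GX against WT under MRL5, and equal column sums called 1 for the interaction, which uses all groups and so has no narrower fit. The cause was not tested. Equal column sums moved the median of all genes to -0.11 for GX against WT under DMSO. The alternatives for Sln were not run. Depth in reads is unknown, so a Myl7 value of a few units, or a listed 0, cannot be told from no expression.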
